A study of Mus musculus with 12 samples.

Results

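The genes described here are 10 genes of the major histocompatibility complex (MHC) class I pathway, namely the heavy chains H2-K1 and H2-D1, the light chain B2m, the peptide transporter genes Tap1 and Tap2, the loading chaperone Tapbp, the immunoproteasome subunits Psmb8, Psmb9 and Psmb10, and the transactivator Nlrc5. They were taken by symbol from the deposited expression table, which holds 43280 genes, and all 10 had a row. Poly(A) RNA was sequenced from bone marrow-derived macrophages (BMDM), grown from mouse marrow with M-CSF, of wild type (wt) and Treml4-/- mice, both labelled with the C57BL6 background. The cells were unstimulated and given PBS as vehicle (M0), or were activated with lipopolysaccharide (LPS), a bacterial cell wall component, at 100 ng/ml for 8 h (M1-8 h) or 12 h (M1-12 h). Each of the 6 groups held 2 biological replicates, which gave 12 libraries. The age of the mice and whether replicates with the same number came from the same animal are not given in the sources used here, and the M0 libraries carry no vehicle time.

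MHC class I molecules show peptides from inside the cell to CD8 T cells. Proteasomes cut proteins into peptides, the TAP transporter made of the Tap1 and Tap2 products carries them into the endoplasmic reticulum (ER), and tapasin, the Tapbp product, holds TAP and the empty heavy chain together until a peptide binds. The heavy chain pairs with beta-2 microglobulin, the B2m product, before it moves to the cell surface. In immunoproteasomes the Psmb8, Psmb9 and Psmb10 products take the places of the constitutive catalytic subunits encoded by Psmb5, Psmb6 and Psmb7. Nlrc5 encodes the class I counterpart of Ciita, the transactivator of MHC class II genes. Interferons and inflammatory signals are known to induce these genes in many cell types, through interferon-response (ISRE), gamma-activated (GAS) and kappaB elements in their promoters.

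In the GENCODE M21 annotation of GRCm38, 7 of the 10 genes lie on chromosome 17, with Tapbp (33915899-33929292), H2-K1 (33996017-34000347), Psmb9 (34181987-34187764), Tap1 (34187553-34197225), Psmb8 (34197721-34201454), Tap2 (34203527-34216321) and H2-D1 (35262730-35267499) in this order. Treml4 lies on the same chromosome (48264295-48275360), 13.00 to 14.34 Mb from these genes. B2m is on chromosome 2 (122147686-122153083), and Psmb10 (105935735-105938444) and Nlrc5 (94434356-94527272) are on chromosome 8. All 10 are protein coding. The annotated Tap1 and Psmb9 genes share 212 bases on opposite strands, and whether counting used strand is not given in the sources used here, so reads in that stretch cannot be assigned with certainty. Some reads of the class I heavy chains, which are related paralogs, could likewise have been split between them.

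Promoter windows from RefSeq (GRCm38.p6), which run from 250 bases before to 50 bases after a gene's start, were available for 8 of the 10 genes. The upstream 250 bases of both heavy chain genes and of B2m are shown because these chains form 1 complex and their RNA responded to different degrees, and the stretch between the Tap1 and Psmb9 starts because 1 short region serves both genes. Capitals mark matches to an ISRE core (GAAANNGAAA), to a GAS element (TTCNNNGAA) or to the kappaB consensus on either strand, and H2-K1 is the first of its 2 RefSeq starts. All starts used for these sequences are those of RefSeq and can differ from the GENCODE positions given above. By GENCODE the H2-D1 bases shown lie inside the H2-D1 gene, and the Tap1 and Psmb9 stretch lies inside the Psmb9 gene.

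H2-K1, chr17:34000348-34000597, minus strand: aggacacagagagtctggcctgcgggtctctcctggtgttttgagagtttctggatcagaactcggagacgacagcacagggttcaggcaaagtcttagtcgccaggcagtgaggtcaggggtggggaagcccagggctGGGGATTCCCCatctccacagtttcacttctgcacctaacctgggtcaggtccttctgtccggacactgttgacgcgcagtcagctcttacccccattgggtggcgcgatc
H2-D1, chr17:35262844-35263093, plus strand: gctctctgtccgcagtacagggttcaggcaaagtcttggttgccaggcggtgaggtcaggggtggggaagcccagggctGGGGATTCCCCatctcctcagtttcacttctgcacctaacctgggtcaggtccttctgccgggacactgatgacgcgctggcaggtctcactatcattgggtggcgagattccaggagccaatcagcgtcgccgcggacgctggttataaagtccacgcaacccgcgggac
B2m, chr2:122147437-122147686, plus strand: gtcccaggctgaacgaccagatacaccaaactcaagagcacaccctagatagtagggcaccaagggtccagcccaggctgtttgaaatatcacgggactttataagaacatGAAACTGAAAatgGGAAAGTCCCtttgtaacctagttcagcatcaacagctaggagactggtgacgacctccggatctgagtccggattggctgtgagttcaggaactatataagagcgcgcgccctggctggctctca
Tap1 and Psmb9, chr17:34187331-34187555, plus strand as for Tap1: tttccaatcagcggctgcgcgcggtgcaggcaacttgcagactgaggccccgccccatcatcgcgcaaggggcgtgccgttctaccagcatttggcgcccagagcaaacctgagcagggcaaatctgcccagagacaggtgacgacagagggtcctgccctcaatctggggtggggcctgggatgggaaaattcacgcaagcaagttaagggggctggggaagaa

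The H2-K1 and H2-D1 sequences carried the same 11 bases of kappaB matches, at -111 to -101 from the H2-K1 start and -171 to -161 from the H2-D1 start. Lined up at this stretch without gaps, 166 of 190 bases (87.4%) were the same, with a longest shared run of 47 bases. B2m held an ISRE core at -139 to -130 and a kappaB match at -126 to -117. The 225 bases between the RefSeq starts of Tap1 and Psmb9 held no match to the ISRE core, GAS or kappaB letters. Over the whole windows, the kappaB consensus was present in 3 of the 8 genes (H2-K1, H2-D1 and B2m), against 5.8% of all 32851 RefSeq windows, the ISRE core in 1 (B2m) against 3.44%, and the GAS element in 1 (Psmb8, at -97 to -89) against 8.3%. A CCAAT box, searched by the letters CCAAT on either strand, was present in 6 of the 8 against 37.4% of all windows. The Tap1 and Psmb9 windows held the same match, at -222 from the Tap1 start and -8 from the Psmb9 start. With the likeness of H2-K1 and H2-D1 given above, these counts are not of separate promoters. The windows of Psmb10, and of the constitutive subunits Psmb5 and Psmb6, held none of the 4 motifs. These are matches of letters and not tested binding sites, and a window without a match says only that the letters are absent there.

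Treml4, the deleted gene, had 0 reads in all 6 Treml4-/- libraries and 198 to 663 reads in the wt libraries. A count of 0 allows up to 3 reads, or 0.0513 to 0.0625 CPM, per library, where CPM is the count of a gene scaled to the total of its library. Between 48008751 and 58500792 reads were counted on genes per library. The 7 macrophage markers summed to 9712 to 27537 CPM, whereas 3 B cell markers and 3 T and NK cell markers stayed at or below 0.309 CPM in sum. The 5 neutrophil and progenitor markers summed to 31.2 and 81.9 CPM in the wt M0 libraries, 85.7 and 99.1 CPM in the Treml4-/- M0 libraries and 40.4 to 87.5 CPM after LPS in both genotypes, led by Mpo, S100a8 and S100a9. Ly6g had at most 7 reads in any library. Mpo was highest at M0 (31.5 CPM) and as low as 0.516 CPM after LPS. S100a8 had at most 26.4 CPM at M0 and up to 50.3 CPM after LPS, so this sum mixes markers that moved in opposite directions. The 5 dendritic cell markers summed to 0.688 to 0.896 CPM at M0 and 2.53 to 7.71 CPM after LPS. This rise was that of Xcr1, which was at 0 in every M0 library and reached 7.19 CPM. Flt3 stayed at or below 0.713 CPM in every library, and Zbtb46, Siglech and Cd209a at or below 0.337 CPM. The part of these lists in the results was not tested. The variance between the replicates of a group was 11.3 to 51.7 times what counting error alone gives. This is a chi-square statistic over genes divided by its degrees of freedom, and both replicates were kept as samples.

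Per kilobase of annotated exon, which allows genes to be compared, B2m RNA was the most abundant in every group and H2-D1 RNA the second. In wt M0 cells the levels were 1293 CPM per kb for B2m, 991 for H2-D1, 346 for H2-K1 and 140 for Tapbp, and the libraries of neighbouring genes in this order did not overlap. Psmb10 (49.3) and Psmb8 (45.6) followed with overlapping libraries, and then Tap2 (22.9), Tap1 (10.8 and 11.2 in its libraries), Psmb9 (9.84) and Nlrc5 (4.39 and 6.01). At M1-8 h in wt the heavy and light chains kept their places, Tap1 stood at 161 CPM per kb, above Psmb8 (121) and Tap2 (92.9 and 97.1), and Nlrc5 at 68.0, above Psmb9 (44.8). Exon lengths include minor transcripts, so the order between genes rests on the annotation, while changes within a gene do not. Together the 10 genes took 0.566 ± 0.0844% (SD, n = 2) of all counted reads in wt M0 cells and 0.532 ± 0.00742% in Treml4-/- M0 cells. The share was 1.26 ± 0.0655% in wt and 1.07 ± 0.0204% in Treml4-/- cells after 8 h of LPS, and 1.42 ± 0.0881% and 1.29 ± 0.0518% after 12 h. The plot of reads by library shows the values behind the comparisons that follow.

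**Figure D1:**
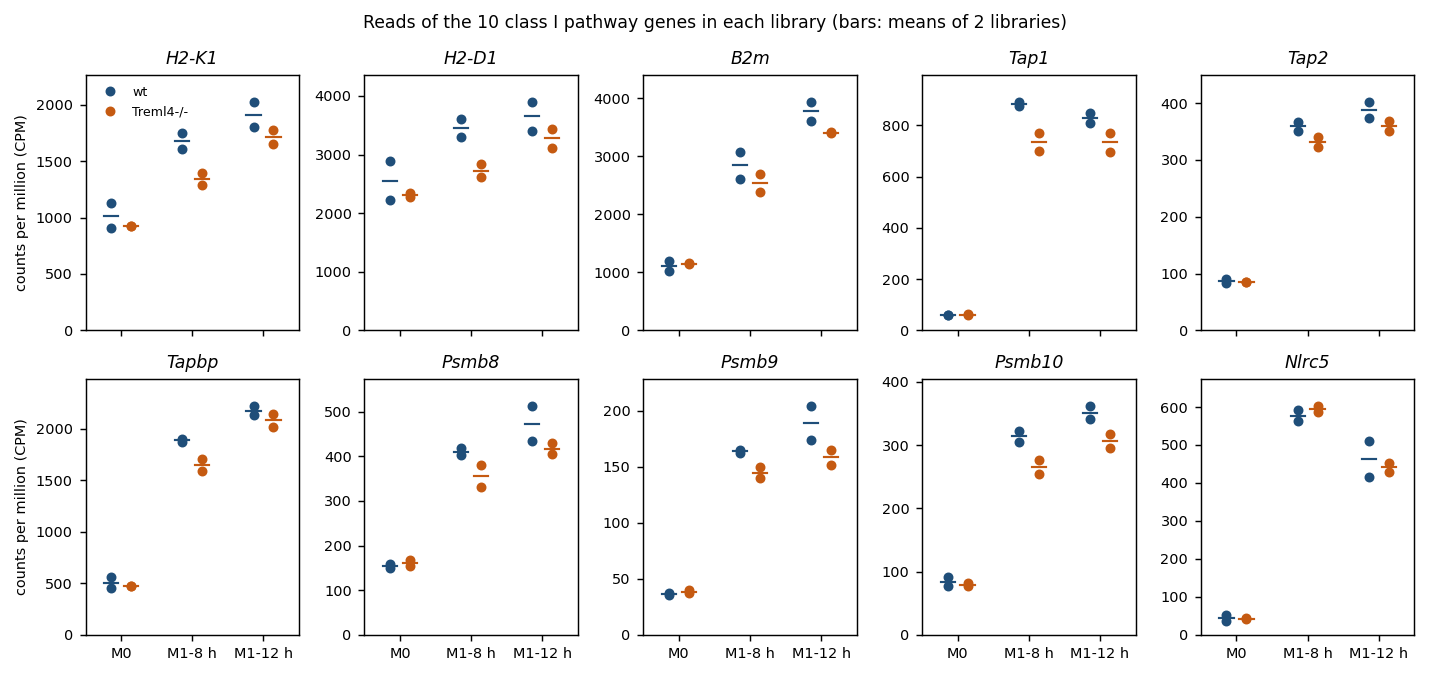
CPM of each of the 10 genes in each library (points), with time of LPS on the horizontal axis, wt in blue and Treml4-/- in orange, and the mean of 2 libraries as a bar; each panel has its own linear axis from 0. The LPS libraries lie above the M0 libraries of the same genotype in every panel, with the largest fold changes for Tap1 and Nlrc5 and the smallest for H2-D1.

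To see how the pathway responded to LPS, M1 cells were compared with M0 cells within each genotype by limma on log2(CPM + 1), on which changes of genes with low counts come out too small. A gene was called at a Benjamini-Hochberg adjusted p under 0.05, over the 12086 genes that reached 1 CPM in 2 or more libraries, and a fold change of at least 1.4. All 10 genes passed the filter on low values. At M1-8 h, 9 of the 10 rose in wt cells and 9 in Treml4-/- cells, with H2-D1 the exception in both, and at M1-12 h all 10 rose in both genotypes. Of the 10, Tap1 and Nlrc5, both among the 3 with the lowest levels per kb at M0, had the largest fold changes in each comparison, and the heavy chains had the smallest. For 9 of the 10 genes all 8 LPS libraries lay above all 4 M0 libraries of both genotypes, a pattern that 15.8% of the tested genes shared. The exception was again H2-D1.

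The called shares must be read against the whole table, in which LPS moved most genes. In wt cells 16.3% of the tested genes were called higher and 60.6% lower after 8 h, and 16.2% and 60.4% after 12 h. For Treml4-/- cells these shares were 17.7% and 58.1% after 8 h of LPS and 16.1% and 59.6% after 12 h. The median log2 fold change of the 10 genes was 1.90 in wt and 1.76 in Treml4-/- cells at M1-8 h, and 2.08 in wt and 1.97 in Treml4-/- cells at M1-12 h, beside medians over all tested genes of -0.74, -0.70, -0.77 and -0.74. When libraries were scaled by the median of ratios instead of their read totals, the median of all genes came to between -0.02 and 0.00, and the calls in wt at M1-8 h split into 3764 higher and 3625 lower instead of 1971 and 7319. All 10 genes rose in all 4 comparisons under that scaling, H2-D1 at M1-8 h included (log2 fold change 1.29 in wt and 0.995 in Treml4-/- cells). Fold changes are given below for read totals, so a change near the median of all genes is negative on this scale. In bulk RNA fewer cells of a type and less RNA per cell cannot be told apart.

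**Figure D2:**
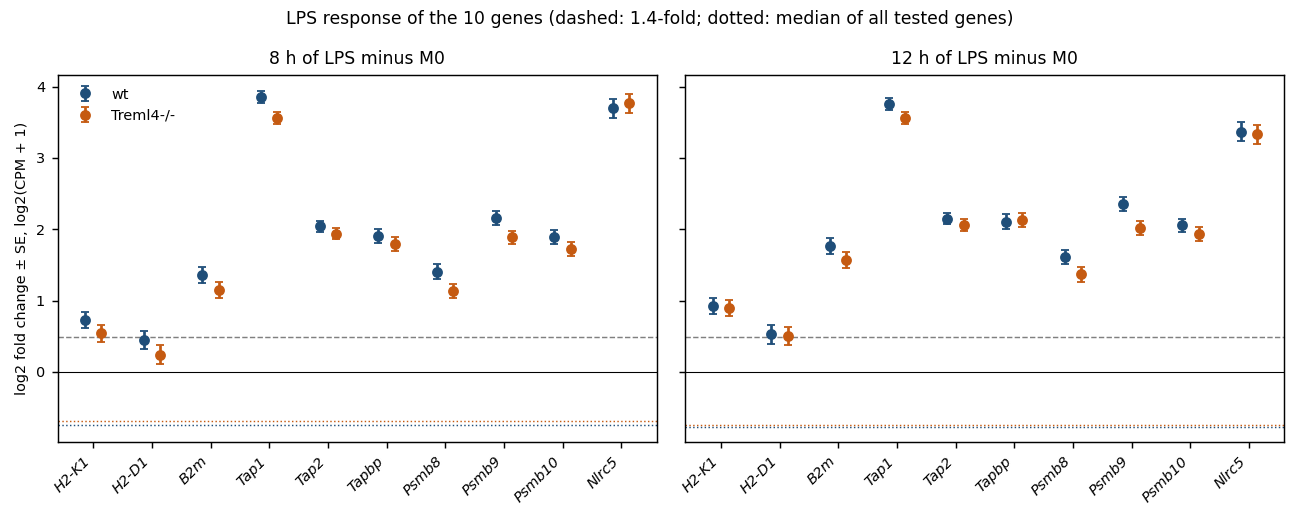
Log2 fold change ± SE of each gene after 8 h (left) and 12 h (right) of LPS against M0, in wt (blue) and Treml4-/- (orange) cells; the dashed line marks 1.4-fold and the dotted lines the median of all tested genes in each genotype. Tap1 and Nlrc5 lie above 3 in every comparison, and H2-D1 lies below the dashed line at 8 h and just above it at 12 h.

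The 2 heavy chains rose least. H2-K1, a classical heavy chain, had 905 and 1127 CPM in wt M0 cells, 1605 and 1749 CPM at M1-8 h and 1801 and 2024 CPM at M1-12 h. In Treml4-/- cells its values were 925 and 921 CPM, then 1392 and 1290 CPM, then 1656 and 1778 CPM. The libraries of M0 and LPS did not overlap in either genotype, and the log2 fold change at M1-8 h was 0.73 ± 0.11 (SE) in wt (limma adjusted p = 8.7e-05) and 0.54 ± 0.11 in Treml4-/- cells (limma adjusted p = 9.1e-04). The latter was 0.48 without replicate 1 of the Treml4-/- M1-8 h group, just short of 1.4-fold.

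H2-D1, the other classical heavy chain of this strain, had the highest CPM of the 10 genes at M0, with 2219 and 2892 CPM in wt and 2337 and 2272 CPM in Treml4-/- cells. At M1-8 h it had 3293 and 3613 CPM in wt and 2839 and 2614 CPM in Treml4-/- cells, and 3409 and 3898 CPM and 3116 and 3434 CPM after 12 h. The wt M0 replicate with 2892 CPM lay above both Treml4-/- M1-8 h libraries. Its log2 fold change was 0.44 ± 0.13 in wt (limma adjusted p = 0.00731, under 1.4-fold) and 0.24 ± 0.13 in Treml4-/- cells (limma adjusted p = 0.103) after 8 h. After 12 h it was 0.52 ± 0.13 in wt and 0.51 ± 0.13 in Treml4-/- cells. These calls turn on single libraries. At M1-12 h in wt it was not called without replicate 1 of wt M0 (0.33) or replicate 2 of wt M1-12 h (0.43), nor in Treml4-/- cells without replicate 2 of M0 (0.48) or replicate 2 of M1-12 h (0.44). At M1-8 h in wt it was called without replicate 2 of wt M0 (0.64) or replicate 1 of wt M1-8 h (0.51).

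B2m, the light chain shared by all class I molecules, rose more than either heavy chain. It had 1024 and 1199.7 CPM in wt M0 cells, 2613 and 3080 CPM at M1-8 h and 3611 and 3936 CPM at M1-12 h. Its values in Treml4-/- cells were 1153 and 1139 CPM, 2383 and 2697 CPM, and 3411 and 3398 CPM. The M1-12 h libraries lay above the M1-8 h libraries in both genotypes. The fold change at M1-12 h was 3.40 in wt (log2 1.77 ± 0.11, limma adjusted p = 5.1e-08) and 2.97 in Treml4-/- cells. Within libraries the H2-K1 to B2m ratio per kb went from 0.267 ± 0.0115 (SD, n = 2) at M0 to 0.173 ± 0.00960 at M1-8 h and 0.148 ± 0.00321 at M1-12 h in wt, and the H2-D1 to B2m ratio from 0.763 ± 0.0573 to 0.406 ± 0.0206 and 0.322 ± 0.0109. The values in Treml4-/- cells were 0.236, 0.156 and 0.148 for H2-K1 and 0.671, 0.360 and 0.321 for H2-D1. No library after LPS reached the ratio of any M0 library, so B2m RNA gained on both heavy chains in each genotype. The H2-D1 to H2-K1 ratio moved less, from 2.86 ± 0.0911 to 2.35 ± 0.0111 and 2.18 ± 0.0262 in wt. Such ratios do not depend on how libraries are scaled, and they are given as descriptions without a test.

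The transporter and its partner rose further. Tap1, 1 of the 2 subunits of TAP, had 59.2 and 61.2 CPM in wt M0 cells and 876 and 891 CPM at M1-8 h, and 62.0 and 60.3 CPM and then 771 and 698 CPM in Treml4-/- cells. That was a 14.4-fold rise in wt (log2 3.85 ± 0.08, limma adjusted p = 1.1e-11) and an 11.8-fold rise in Treml4-/- cells (log2 3.56 ± 0.08, limma adjusted p = 2.1e-11). At M1-12 h the values were 808 and 849 CPM in wt and 695 and 770 CPM in Treml4-/- cells. Tap2, the other subunit, started higher and rose less. It had 82.6 and 90.9 CPM in wt M0 cells, 367 and 351 CPM at M1-8 h and 374 and 402 CPM at M1-12 h, with 85.6 and 85.7 CPM, 341 and 322 CPM, and 351 and 369 CPM in Treml4-/- cells. Its fold change at M1-8 h was 4.11 in wt and 3.83 in Treml4-/- cells. The Tap1 to Tap2 ratio per kb went from 0.480 ± 0.0215 (SD, n = 2) at M0 to 1.70 ± 0.0726 at M1-8 h in wt, and from 0.493 ± 0.00970 to 1.53 ± 0.0470 in Treml4-/- cells.

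Tapbp had 455 and 560 CPM in wt M0 cells, 1906 and 1872 CPM at M1-8 h and 2219 and 2136 CPM at M1-12 h. In Treml4-/- cells it had 474 and 476 CPM, 1707 and 1588 CPM, and 2018 and 2148 CPM. The LPS and M0 libraries were far apart, with fold changes at M1-8 h of 3.74 in wt (log2 1.90 ± 0.10) and 3.46 in Treml4-/- cells (log2 1.79 ± 0.10).

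All 3 immunoproteasome subunits rose in both genotypes. Psmb8, which encodes the beta5i subunit, had 150.0 and 159 CPM in wt M0 cells, 403 and 418 CPM at M1-8 h and 435 and 512 CPM at M1-12 h. Its Treml4-/- values were 168 and 155 CPM, 381 and 331 CPM, and 406 and 429 CPM. Psmb9, which encodes beta1i and shares its upstream region with Tap1, had 36.9 and 35.2 CPM, 162 and 165 CPM, and 174 and 204 CPM in wt and 40.0 and 36.8 CPM, 149 and 139 CPM, and 151 and 165 CPM in Treml4-/- cells. Psmb10, which encodes beta2i, had 77.3 and 90.9 CPM, 322 and 306 CPM, and 341 and 361 CPM in wt. In Treml4-/- cells Psmb10 had 82.4 and 76.6 CPM, 276 and 254 CPM, and 296 and 317 CPM. At M1-8 h the fold changes in wt were 2.65 for Psmb8 (log2 1.41 ± 0.10), 4.46 for Psmb9 (2.16 ± 0.10) and 3.71 for Psmb10 (1.89 ± 0.10), with limma adjusted p-values of 1.4e-07, 2.8e-09 and 7.9e-09. Those in Treml4-/- cells were 2.20, 3.69 and 3.31. Tap1 and Psmb9 share a short upstream region. Their ratio per kb was 1.07 and 1.16 in the wt M0 libraries, and its mean at M1-8 h was 3.22 times that at M0. In Treml4-/- cells this ratio went from 1.07 ± 0.0418 (SD, n = 2) to 3.40 ± 0.0735. Reads in the stretch where the annotated genes overlap could not be assigned with certainty, which limits this ratio.

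The constitutive counterparts changed less. Psmb5 had 113 and 119.6 CPM in wt M0 cells and 90.6 and 81.1 CPM after 8 h, a log2 fold change of -0.44 ± 0.10 that was not called, and it fell in Treml4-/- cells by 0.64 on the log2 scale (limma adjusted p = 8.0e-05). Psmb6 (log2 fold change 0.40 ± 0.09) and Psmb7 (0.42 ± 0.09) were below 1.4-fold at M1-8 h in wt, and 0.12 and 0.27 in Treml4-/- cells. At M1-12 h Psmb6 rose in both genotypes (0.84 ± 0.09 in wt and 0.67 ± 0.09 in Treml4-/- cells). Under median of ratios scaling Psmb5 turned positive (0.40 in wt and 0.10 in Treml4-/- cells at M1-8 h), whereas Psmb6 and Psmb7 were called higher (1.24 and 1.26 in wt). Ratios within a library avoid this choice. Psmb8 to Psmb5 per kb stood at 0.352 and 0.353 in the wt M0 libraries, then 1.18 and 1.37 after 8 h, then 1.23 and 1.41 after 12 h. Psmb9 to Psmb6 stood at 0.119 and 0.111, then 0.381 and 0.412, then 0.302 and 0.371, and Psmb10 to Psmb7 at 1.44 and 1.92, then 4.53 and 4.75, then 5.28 and 5.38. The mean ratios at M1-8 h were 3.62, 3.44 and 2.76 times those at M0 in wt and 3.46, 3.46 and 2.75 times in Treml4-/- cells. For all 3 pairs every LPS library lay above every M0 library, in both genotypes.

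**Figure D3:**
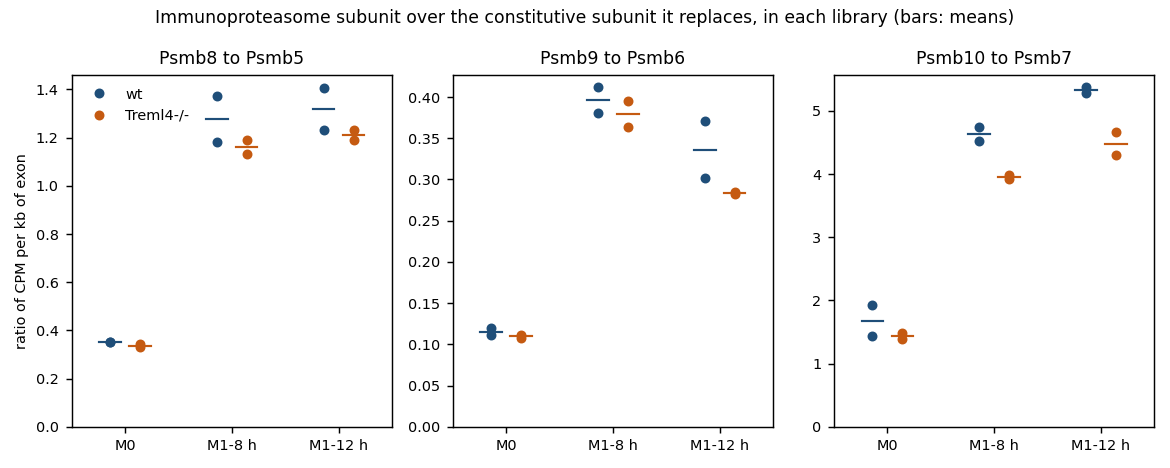
Ratio of CPM per kb of exon of each immunoproteasome subunit to the constitutive subunit it replaces, in each library (points) with the mean as a bar, by time of LPS and genotype (wt blue, Treml4-/- orange), on linear axes from 0. The ratios at 8 h are 2.75 to 3.62 times those at M0 in wt and Treml4-/- cells.

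Nlrc5 had 51.0 and 37.3 CPM in wt M0 cells and 42.4 and 43.2 CPM in Treml4-/- M0 cells. At M1-8 h it had 564 and 591 CPM in wt and 586 and 602 CPM in Treml4-/- cells, a 13.0-fold rise (log2 3.70 ± 0.13, limma adjusted p = 6.3e-10) and a 13.6-fold rise (3.76 ± 0.13, limma adjusted p = 5.6e-10). At M1-12 h it had 415 and 509 CPM and 429 and 453 CPM, below every M1-8 h library of the same genotype. Ciita, the class II counterpart, was lower after LPS on the scale of read totals. Its values were 32.4 and 40.2 CPM in wt M0 cells, 20.9 and 25.2 CPM after 8 h and 11.9 and 14.0 CPM after 12 h, and 32.2 and 33.9, 25.7 and 22.8, and 20.45 and 22.8 CPM in Treml4-/- cells. Ciita fell by 0.63 on the log2 scale at M1-8 h in wt and by 1.41 at M1-12 h. In Treml4-/- cells the value was -0.43 after 8 h, which was not called, and Ciita fell by 0.59 after 12 h. Under median of ratios scaling the value was 0.19 at M1-8 h in wt and 0.20 at M1-12 h in Treml4-/- cells, and only wt at M1-12 h stayed negative, at -0.58. The Nlrc5 to Ciita ratio per kb went from 1.77 and 1.04 in the M0 libraries to a mean of 28.3 ± 2.80 (SD, n = 2) at M1-8 h and 39.9 ± 1.25 at M1-12 h in wt, and from 1.45 ± 0.0301 to 27.6 ± 2.87 and 22.9 ± 0.836 in Treml4-/- cells.

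Whether the pathway went on rising from 8 h to 12 h was asked within each genotype. No member was called in either genotype, where 31.6% of the tested genes were called in wt and 32.3% in Treml4-/- cells, although 2 members in wt and 5 in Treml4-/- cells had an unadjusted p under 0.05. Of the 10 genes 8 were higher at M1-12 h and 2, Tap1 and Nlrc5, lower, in both genotypes. B2m had the largest increase, with a log2 fold change of 0.41 ± 0.11 in wt (limma adjusted p = 0.0123) and 0.43 ± 0.11 in Treml4-/- cells (limma adjusted p = 0.00999), short of 1.4-fold. In Treml4-/- cells H2-K1 (0.36 ± 0.11), Tapbp (0.34 ± 0.10) and Nlrc5 (-0.43 ± 0.13) also had an adjusted p under 0.05 without reaching 1.4-fold. The log2 fold change of Nlrc5 in wt was -0.33 ± 0.13 (limma adjusted p = 0.0668). That of Tap1 was -0.09 ± 0.08 in wt, and 0.00 ± 0.08 in Treml4-/- cells, where it was 0.07 under median of ratios scaling. In wt, the CPM gained by 8 h was 107% of that gained by 12 h for Tap1 and 128% for Nlrc5, against 65.2% for B2m and 73.7% for H2-K1. The corresponding shares in Treml4-/- cells were 100.3%, 138%, 61.7% and 52.7%, and 43.5% for H2-D1, which had 81.7% in wt. These shares rest on means of 2 libraries, and differences in them between genotypes were not tested. For H2-D1 in wt the M0 libraries had 2219 and 2892 CPM, beside a mean gain of 897 CPM by 8 h.

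Whether loss of Treml4 changed these genes was asked at each time point, and none of the 10 was called by the limma fit. Over all tested genes 0.0993% (12 genes) were called at M0, 0.0910% (11) after 8 h of LPS and 0.132% (16) after 12 h. Leaving out 1 library moved these numbers, to 220 without replicate 1 of wt M0, 599 without replicate 1 of Treml4-/- M1-8 h and 79 without replicate 1 of wt M1-12 h, but none of the 10 genes was called between genotypes with any library left out. By unadjusted p under 0.05, 0, 4 and 1 of the 10 genes differed, beside 3.35%, 21.0% and 7.55% of all tested genes. At M0 the genotypes overlapped for all 10 genes, with wt higher in 6 and a median log2 difference of 0.02, and leaving out 1 of the wt M0 replicates turned the direction of 8 of them. At M1-8 h wt was higher in 9 of 10 with a median of 0.20, and at M1-12 h in 10 of 10 with a median of 0.16, while the medians over all tested genes were -0.03, -0.07 and -0.05. The same libraries entered the read total of every gene, and the genes of this pathway move together, so these counts of directions carry no test.

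At M1-8 h both wt libraries lay above both Treml4-/- libraries for 8 of the 10 genes, all but B2m and Nlrc5, a pattern that 18.0% of all tested genes shared. At M0 this held for 0 of the 10 and 10.8% of all genes, and at M1-12 h for 7 (all but H2-D1, Tapbp and Nlrc5) and 12.3%. Marker sums were apart in the same libraries at M1-8 h. The macrophage markers summed to 11454 and 12895 CPM in wt and 9951 and 10570 CPM in Treml4-/- cells, and the neutrophil and progenitor markers to 53.5 and 57.0 CPM in wt and 67.4 and 87.5 CPM in Treml4-/- cells. Both sums were also apart at M0, in the same directions, and both overlapped between genotypes at M1-12 h. Whether the sums bear on the genotype differences of the 10 genes was not tested. The macrophage sum mixes markers that LPS moved in opposite directions. Lyz2 had at least 10416 CPM at M0 and as little as 3011 CPM after LPS. Fcgr1 had at most 65.1 CPM at M0 and up to 1348 CPM after LPS. A difference in the sum therefore does not by itself show a difference in macrophage share. The largest differences at M1-8 h were 0.34 ± 0.13 for H2-D1 (1.27-fold, limma adjusted p = 0.191), 0.32 ± 0.11 for H2-K1 (1.25-fold, limma adjusted p = 0.179), 0.27 ± 0.08 for Tap1 (limma adjusted p = 0.166) and 0.24 ± 0.10 for Psmb10 (1.18-fold, limma adjusted p = 0.198). These were the 4 genes with an unadjusted p under 0.05. For the other members the difference ranged from -0.04 ± 0.13 for Nlrc5 to 0.21 ± 0.10 for Psmb8. The 95% intervals of H2-D1 (0.05 to 0.63) and H2-K1 (0.07 to 0.57) included 1.4-fold, which is 0.485 on the log2 scale. Those of the other 8 genes, such as Tap1 (0.09 to 0.45) and Tap2 (-0.06 to 0.29), ended between 0.26 and 0.45. At M1-12 h the largest difference was that of Psmb9, 0.25 ± 0.10 (limma adjusted p = 0.574), and the remaining genes lay between 0.06 and 0.20. Under median of ratios scaling the differences at M1-8 h were larger, with 0.47 for H2-D1, 0.45 for H2-K1 and 0.40 for Tap1, none was called, and Nlrc5 was 0.09 in place of -0.04.

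**Figure D4:**
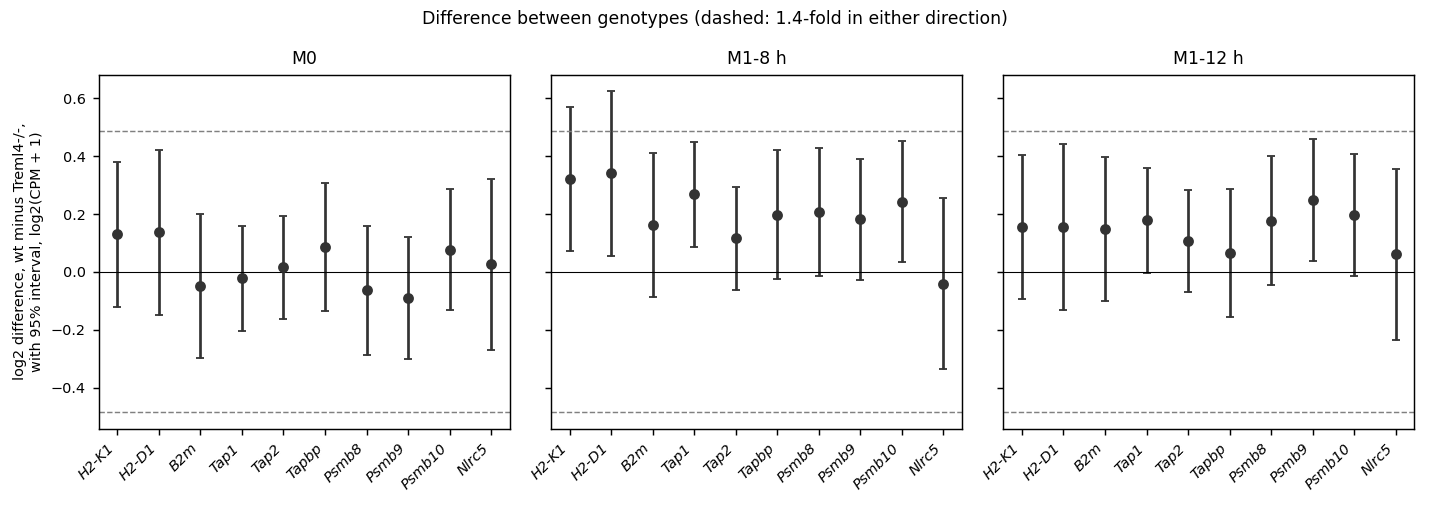
Log2 difference between wt and Treml4-/- cells for each gene (points) with 95% intervals at M0, M1-8 h and M1-12 h; positive values mean higher in wt, and the dashed lines mark 1.4-fold in either direction. The points lie around 0 at M0 and, but for Nlrc5 at M1-8 h, between 0.06 and 0.34 after LPS, and none is beyond the dashed lines.

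The difference in the LPS response itself was tested as an interaction. No member was called at 8 h or at 12 h, nor were more than 0.00827% of all tested genes at either time, with 1 member at each time under an unadjusted p of 0.05. Tap1 had the largest value at 8 h, with a response 0.29 ± 0.12 larger in wt (limma adjusted p = 0.729), and Psmb9 at 12 h, with 0.34 ± 0.13 (limma adjusted p = 0.999). Over the 10 genes the values ran from -0.07 to 0.29 at 8 h and from -0.02 to 0.34 at 12 h.

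The rest of the pathway was described through 8 lists of 63 genes, of which 59 were tested (all but H2-Q1, H2-Q2, H2-Q10 and Ifng). At M1-8 h in wt 25 were called higher, 16 lower and 18 not, with a median log2 fold change of 0.21. In Treml4-/- cells 24 were higher, 13 lower and 22 not. Over all tested genes 16.3% were higher and 60.6% lower in wt, and 17.7% and 58.1% in Treml4-/- cells. Under median of ratios scaling 40 of the list genes were higher and 6 lower in each genotype. Over all 11887 genes tested under that scaling, 3764 were higher and 3625 lower in wt, and 3791 and 3824 in Treml4-/- cells. Most of the further class I heavy chains rose, with 9 of 11 tested called higher and 1 lower in wt under either scaling, led by H2-T24 (log2 fold change 3.11 ± 0.08) and H2-T23 (2.30 ± 0.13), the gene for Qa-1. Mr1, which presents microbial vitamin metabolites, fell by 2.70 on the log2 scale in wt and by 2.31 in Treml4-/- cells, and remained lower under median of ratios scaling (-2.06 in wt).

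Of the 8 further proteasome genes 3 rose and 1 fell in wt at M1-8 h, against 6 called higher and 0 lower under median of ratios scaling. Psme1 (1.31 ± 0.08) and Psme2 (2.09 ± 0.08), which encode the PA28 activator, rose in both genotypes, as did Psme4 (0.85 ± 0.17), the gene for another activator. Of 6 genes of loading and quality control in the ER 1 rose and 2 fell in wt (4 and 1 under median of ratios scaling). Tapbpl, a tapasin-related peptide editor, rose by 1.61 ± 0.08, Uggt1, a glycoprotein folding sensor, fell by 1.59, and Canx, the chaperone calnexin, fell by 0.54 in wt (-0.27 and not called in Treml4-/- cells). Canx was 0.30 under median of ratios scaling and was not called without replicate 1 of wt M0 (-0.33) or replicate 2 of wt M1-8 h (-0.45). Of 6 cytosolic peptidases 1 rose and 2 fell in wt (3 and 1 under median of ratios scaling). Lap3, a leucine aminopeptidase, rose 5.65-fold, Thop1, an oligopeptidase that can destroy class I peptides, fell by 2.38, and Nrd1, the peptidase nardilysin, fell by 0.70 in wt, with 0.14 under median of ratios scaling.

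**Figure D5:**
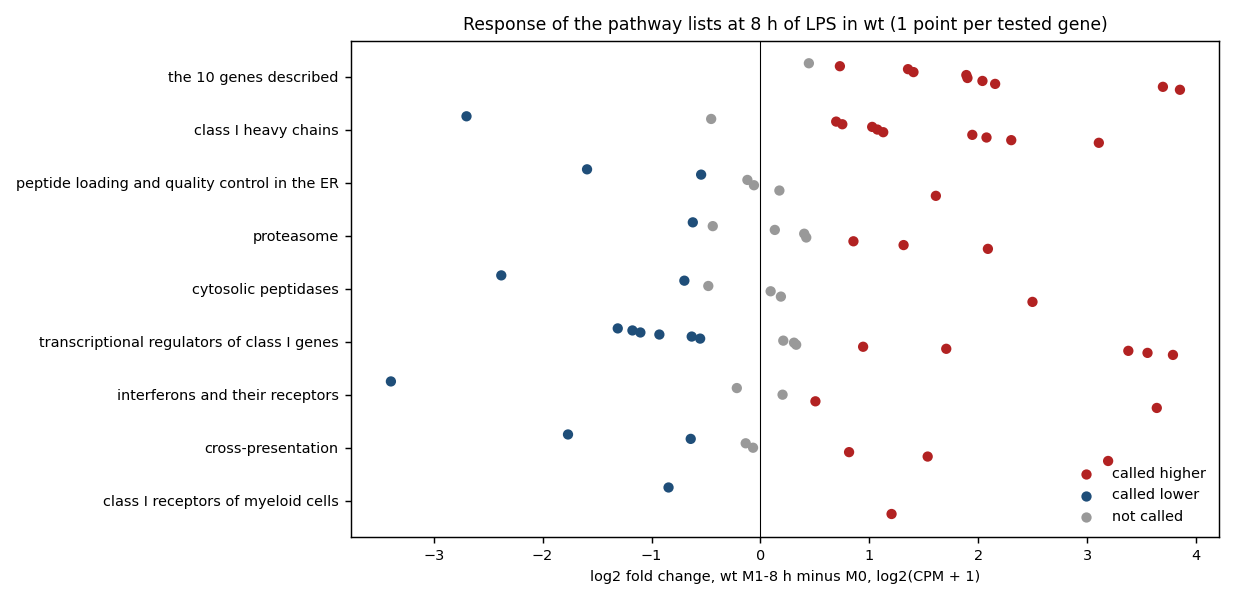
Log2 fold change at M1-8 h against M0 in wt for every tested gene, with the 10 genes described in the top row and the 8 pathway lists below; red points were called higher, blue points lower and grey points not called. The top row and the class I heavy chains lie mostly to the right of 0, while the other lists hold points on both sides.

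Of 14 transcriptional regulators 5 rose and 6 fell at M1-8 h in wt, and 5 rose and 4 fell in Treml4-/- cells, while median of ratios scaling gave 8 higher and 1 lower in each genotype. Stat2 (3.79 ± 0.08), which carries interferon signals to the nucleus, and Irf1 (3.55 ± 0.10), an interferon-regulated transcription factor, rose by amounts near those of Tap1 and Nlrc5. Irf1 went from 89.5 and 101 CPM in wt M0 cells to 1072 and 1184 CPM after 8 h and 1148 and 1293 CPM after 12 h. Of the 5 tested genes of interferons and their receptors 2 rose and 1 fell in wt (4 and 1 under median of ratios scaling). Ifnb1, the gene for interferon beta, had 0 or 1 read in each M0 library, 445 and 801 reads in wt and 421 and 470 reads in Treml4-/- cells at M1-8 h, and 49 to 90 reads at M1-12 h, and was called higher at both times. The labels of these libraries name only LPS, whereas the paper describes M1 macrophages of other experiments as given LPS and interferon gamma. RNA reads do not show whether interferon gamma protein was added. Ifng, the untested gene of the interferon list, which encodes interferon gamma, had at most 1 read in any library. Ifngr1, a chain of its receptor, fell by 3.39 in wt and 3.13 in Treml4-/- cells, and Ifnar1 rose by 0.51 ± 0.09 in wt, which was not called without replicate 2 of wt M0 (0.40) or replicate 1 of wt M1-8 h (0.44). Of 7 cross-presentation genes 3 rose and 2 fell in wt (5 and 1 under median of ratios scaling), and the largest changes were those of Rab43 (3.19 ± 0.10), Wdfy4 (-1.77 ± 0.14) and Lnpep (1.54 ± 0.15).

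Of the 59 tested list genes Pira2 alone was called between genotypes, and it was lower in wt at all 3 time points. Pira2 belongs to the paired immunoglobulin-like receptors, some of which bind class I molecules, and its paralogs are near-identical, so its reads are uncertain. It had 6.87 and 7.06 CPM in wt and 41.5 and 41.9 CPM in Treml4-/- M0 cells, 3.32 and 3.55 against 21.3 and 22.7 CPM at M1-8 h, and 2.36 and 2.64 against 19.6 and 20.0 CPM at M1-12 h. The log2 difference was -2.42 ± 0.10 in M0 cells, -2.37 ± 0.10 after 8 h of LPS and -2.57 ± 0.10 after 12 h (limma adjusted p = 3.6e-07, 6.8e-07 and 1.9e-07). Pirb, the inhibitory receptor of the pair, had 352 and 394 CPM in wt and 355 and 350.3 CPM in Treml4-/- M0 cells and rose 2.30-fold in wt at M1-8 h. Its genotype difference was 0.08 ± 0.08 at M0. Ciita at M1-12 h, with a log2 difference of -0.70 ± 0.14, had an unadjusted limma p of 3.6e-04 and an adjusted p of 0.128. Further list genes were called only with 1 library left out, Lnpep at M1-8 h without replicate 1 of Treml4-/- M1-8 h (-0.76) and H2-Q6 and H2-Q7 at M1-12 h without replicate 1 of wt M1-12 h (1.66 and 1.44). These 2 heavy chain paralogs, looked at after their values were seen, had 8.27 and 25.1 CPM (H2-Q6) and 10.5 and 24 CPM (H2-Q7) in the wt M1-12 h libraries, so that replicate 2 stood apart, against 6.60 and 7.97 CPM and 7.46 and 9.03 CPM in Treml4-/- cells.

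The genes whose profiles were most like that of the 10 were taken by Pearson's r over the 12 libraries with their mean standardized profile. They were Rnf114 (r = 0.999), Prdx5 (0.998), H2-T23 (0.998), Chmp4b (0.997) and Bambi-ps1 (0.997). Of the 12086 tested genes, 599 outside the 10 exceeded 0.95, so an r this high was not particular to the pathway. Within the 10 genes r to their mean profile was 0.876 for H2-D1, 0.962 for Nlrc5 and 0.966 for H2-K1, and 0.986 to 0.998 for the others. Each of the 10 is part of that mean, which raises its own r, so these values cannot be set against those of outside genes. Prdx5 went from a mean of 193 CPM at M0 to 1581 CPM after LPS and Rnf114 from 126 to 345 CPM.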

How the data were processed

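Poly(A) RNA-seq of 12 BMDM libraries was examined. The deposited table holds log2 CPM of 43280 genes, which the authors made from reads aligned with STAR to mm10 (named in the submitters' processing notes, with no version) and counted per gene, with no pooling of replicates. Whether counting used strand is not given in the sources used here. The values were rebuilt as log2 of reads plus a prior of 0.25 reads, to within 5.2e-14, which gave whole reads for 100% of values (tolerance 0.001). Library totals of 48008751 to 58500792 reads make 1 read worth 0.0171 to 0.0208 CPM. The floor of 3 reads covers counting error only.

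Log2(CPM + 1) was fitted over all 12 libraries with limma 3.58.1 (R 4.3.3), with group means, a mean-variance trend and two-sided moderated tests, for 12086 genes. Adjustment was by Benjamini and Hochberg over these genes, and calls used the study's own limits, a false discovery rate of 0.05 with at least 1.4-fold. The script was tested on simulated data. SE is that of the fit, and intervals are 95%. With 2 replicates a group, p-values measure the spread between these libraries, and comparisons with M0 share the M0 libraries. Levels per kb used GENCODE M21 exon unions. Motifs were searched in RefSeq promoter windows with Python 3.11.15.

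The 10 genes, the 8 lists and the tests were chosen with earlier results of these data known. Genes named from the lists are constitutive proteasome subunits, PA28, Irf1, Ciita, Pirb, Pira2, the 3 genes of each list with the largest change at M1-8 h in wt, and genes called between genotypes. 1 gene that this rule names is not reported here. The alternatives were a pseudocount of 0.1, no filter, a filter of 5 CPM, median of ratios scaling, the deposited log2 values, voom on recovered reads, only the libraries compared, replicate number or culture as a block, no minimum fold and leaving out each library.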

Additional observations from a re-analysis of the deposited data

How the results depend on the processing

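The number of the 10 genes called in each comparison of LPS with M0 and of genotypes was within 1.5 times the reported number under every alternative run. Between 12 h and 8 h it went from 0 to 1 in wt with no minimum fold, and from 0 to 4 in Treml4-/- cells with no minimum fold and to 1 with median of ratios scaling. With 1 library left out it ran from 0 to 1 in both genotypes. The 1 was B2m, called without replicate 2 of wt M1-8 h or replicate 2 of Treml4-/- M1-8 h. With 2 replicates, a group left with 1 library was assumed to vary like the others. Median of ratios scaling, under which M0 libraries were scaled down and LPS libraries up, turned the log2 fold change of Psmb5 to 0.40, Ciita to 0.19, Nrd1 to 0.14 and Canx to 0.30 at M1-8 h in wt, and to 0.10, 0.29, 0.27 and 0.48 in Treml4-/- cells. At M1-12 h it turned Psmb5 to 0.58, Nrd1 to 0.24 and Canx to 0.37 in wt and Psmb5 to 0.34, Ciita to 0.20, Nrd1 to 0.32 and Canx to 0.47 in Treml4-/- cells. It also turned Tap1 from 8 h to 12 h in Treml4-/- cells (0.068) and the genotype differences of Tap1 at M0 (0.016), Nlrc5 at M1-8 h (0.090) and Pirb at M1-12 h (0.050), none of them called. Genotype differences at M0 changed sign when 1 library was left out, with ranges of -0.029 to 0.29 for H2-K1, -0.055 to 0.33 for H2-D1, -0.16 to 0.066 for B2m, -0.045 to 0.00053 for Tap1, -0.052 to 0.084 for Tap2, -0.062 to 0.24 for Tapbp, -0.039 to 0.19 for Psmb10, -0.20 to 0.25 for Nlrc5 and -0.00071 to 0.16 for Pirb. So did Nlrc5 at M1-12 h (-0.087 to 0.21), H2-D1 from 8 h to 12 h in wt (-0.017 to 0.18) and Tap1 from 8 h to 12 h in Treml4-/- cells (-0.078 to 0.071). Beyond the construction of each alternative the cause was not tested.

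Same-numbered replicates of the 2 genotypes had correlations of deviations of -0.264 in M0 cells, 0.297 after 8 h and 0.0563 after 12 h. Within genotypes these ran from -0.272 to 0.462. With 2 replicates a group such values cannot decide whether the numbers mark pairs. With the replicate number as a block, 9, 9, 10 and 10 of the 10 genes were called for wt and Treml4-/- at M1-8 h and at M1-12 h, and 0 in each other comparison, as without it. A block by culture gave the same numbers where it could be fitted.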
